A study of Homo sapiens with 18 samples.

Results

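Expression of 10 transcription factors of the squamous epithelial lineage was followed in 3 lines of squamous carcinoma from the head and neck, after EHF had been raised or lowered. The factors were TP63, SOX2, PITX1, KLF4, KLF5, GRHL1, GRHL2, GRHL3, OVOL1 and ZNF750. They were taken by gene symbol, and all 10 were found among the 23710 genes of each count table. EHF is an ETS family transcription factor of epithelial cells. A253 comes from a salivary gland carcinoma, and SCC25 and CAL27 come from carcinomas of the tongue. RNA sequencing covered 3 A253 controls and 3 A253 EHF overexpression libraries, 2 SCC25 controls and 2 SCC25 EHF overexpression libraries, and 2 CAL27 controls with 4 CAL27 EHF knockdown libraries. The overexpressing cells were induced with 1 ug doxycycline, while the controls and all CAL27 cells were kept in regular medium, so EHF and the drug cannot be told apart in A253 and SCC25. The knockdown libraries belong to a pair of hairpins, sh 64 and sh 65, with 2 libraries each, named as in the count table. That table calls the CAL27 controls sh Control. Every comparison was made within 1 line unless a sentence says otherwise, and the labels do not say whether replicates were separate cultures, so p-values measure only the spread between these samples.

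The factors act at successive levels of a stratified epithelium. TP63 encodes p63, which sustains basal cells and opens squamous enhancers, often together with SOX2, a basal and progenitor factor, while PITX1 is a homeodomain factor of oral epithelium. KLF5 belongs to proliferating basal layers and KLF4 to the differentiating layers above them, and the grainyhead-like factors GRHL1, GRHL2 and GRHL3 maintain junctions and barrier genes. OVOL1 encodes a zinc finger repressor that favours exit from the cell cycle, and ZNF750 encodes a p63 target that works with KLF4 in terminal differentiation.

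RefSeq promoter windows (GRCh38.p14) were held for 7 of the factors, in 9 windows of 250 bases before to 50 bases after the start, and those of SOX2, GRHL1 and KLF4 are shown as examples of different responses: SOX2 moved against EHF in all 3 lines, GRHL1 rose in every EHF comparison, and KLF4 was called in CAL27 and holds the ETS core described next. The first is SOX2, chr3:181711675-181711924, plus strand. The next is GRHL1, chr2:9951443-9951692, plus strand. The last is KLF4, chr9:107489770-107490019, minus strand. Each is written 5′ to 3′ and covers the 250 bases before the gene start, and capitals mark GGAAGT, a core of the sites bound by ETS factors such as EHF.
SOX2 promoter: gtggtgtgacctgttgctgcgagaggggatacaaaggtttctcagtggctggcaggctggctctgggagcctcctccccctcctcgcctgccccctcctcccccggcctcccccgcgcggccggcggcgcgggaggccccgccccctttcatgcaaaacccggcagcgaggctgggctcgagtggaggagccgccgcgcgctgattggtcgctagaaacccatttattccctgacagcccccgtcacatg
GRHL1 promoter: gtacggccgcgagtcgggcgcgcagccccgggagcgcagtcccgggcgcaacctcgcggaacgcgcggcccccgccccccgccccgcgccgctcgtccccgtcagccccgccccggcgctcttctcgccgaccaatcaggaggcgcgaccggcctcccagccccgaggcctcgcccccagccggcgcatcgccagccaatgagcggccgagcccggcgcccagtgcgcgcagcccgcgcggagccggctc
KLF4 promoter: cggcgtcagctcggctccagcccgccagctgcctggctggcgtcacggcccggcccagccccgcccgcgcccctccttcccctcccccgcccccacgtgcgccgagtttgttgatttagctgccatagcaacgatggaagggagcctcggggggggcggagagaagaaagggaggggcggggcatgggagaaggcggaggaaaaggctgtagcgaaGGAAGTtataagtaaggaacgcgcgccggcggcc
These stretches are rich in G and C, at 68.8% in SOX2, 81.6% in GRHL1 and 69.2% in KLF4. GGAAGT, searched on both strands of the whole windows, occurred in 1 of the 9, that of KLF4, where it begins 34 bases before the start. It occurred in 22.8% of all 35116 RefSeq promoter windows of that length. The longer form CCGGAAGT, which contains GGAAGT, was found in 0 of the 9 windows and in 4.14% of all. AACCGGTT, the grainyhead-like motif, was found in 0 of 9 and in 0.134% of all. CACCC, bound by KLF factors, was found in 5 of 9, those of GRHL3, PITX1 and KLF5, and in 59.9% of all. AACAAT, bound by SOX factors, was found in 1 of 9, that of KLF5, and in 10.1% of all. A match describes the letters only.

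Library totals ran from 7068155 to 19962159 counts. Levels are given as CPM, counts scaled to the library total, which compare 1 gene between libraries, and as TPM, which also divide by gene length and compare genes with each other. EHF went from 83.2 to 91.4 CPM in A253 controls to 633 to 765 CPM with overexpression, an 8.13-fold rise. In SCC25 it rose 1.99-fold, and in CAL27 it fell from 962 and 992 CPM to between 444 and 526 CPM in the 4 knockdown libraries. All 8 markers of squamous epithelium had a mean of at least 1 TPM in every group, led by KRT5 or KRT14. Their summed level was 6782 and 6943 TPM in CAL27 controls, 9371 and 9876 TPM with sh 64 and 9790 and 10704 TPM with sh 65. This sum, mostly keratins, rose with the knockdown, but not every marker did. Mean CDH1 was 103.5 TPM in controls, 95.1 TPM with sh 64 and 91.9 TPM with sh 65. Mean EPCAM was 232, 220 and 225 TPM in the same order, while the other markers rose with both hairpins. The summed level was 12887 to 13316 TPM in A253 controls and 10317 to 11948 TPM with overexpression, and 16087 and 16100 TPM against 16289 and 17101 TPM in SCC25. Salivary markers summed to 834 and 914 TPM in CAL27 controls and 629 to 785 TPM in the knockdowns, nearly all of it KRT18, and the secretory genes AQP5, BPIFA2 and MUC7 were at 0 counts in A253 and SCC25. In SCC25 the salivary sum was 400 and 415 TPM in controls and 501 and 528 TPM with overexpression. Mean KRT18 was 262 TPM in both SCC25 groups. In A253 the salivary sum was 417 to 455 TPM in controls and 425 to 448 TPM with overexpression. Fibroblast markers stayed at or below 11.8 TPM in A253 and CAL27 and lay between 71.4 and 84.3 TPM in SCC25. There 6 of 8 had a mean of at least 1 TPM, with LUM highest at 50.7 TPM in controls and 52.1 TPM with overexpression. Leukocyte markers summed to 39.8 to 276 TPM, and 3 of 5 had a mean of at least 1 TPM in every group. CD68, a lysosomal protein, was the highest in every group. In SCC25 it held 231 TPM in controls and 227 TPM with overexpression, where the sums ran from 263 to 276 TPM. In A253 the leukocyte sum was 137 to 143 TPM in controls and 183 to 210 TPM with overexpression. Mean CD68 there was 133 TPM in controls and 182 TPM with overexpression. In CAL27 the sum was 47.3 and 48.3 TPM in controls and 39.8 to 43.3 TPM in the knockdowns. CD3E was at 0 in both A253 groups. Endothelial markers summed to at most 3.57 TPM and melanocyte markers to at most 12.4 TPM. The part of these shifts in the results for the 10 factors was not tested.

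The number of factors called was counted in each EHF comparison. In A253, 2 of 10 passed the threshold of 0.05 on the p-value adjusted over all genes in edgeR, GRHL1 upward and SOX2 downward, where 7.97% of all genes tested were called. In SCC25, 4 of 10 passed, with TP63, KLF5 and GRHL1 up and SOX2 down, where 23.9% of all genes were called. With the mean of both knockdowns in CAL27, 7 of the 9 tested factors passed, all upward, where 18.8% of genes were called and 9.88% were called upward. With sh 64 alone the same 7 passed, all upward, against 15.7% of genes called and 8.76% called upward. With sh 65 alone 8 of 9 passed, all upward, against 14.6% of genes called and 7.62% called upward. GRHL3 was too low in CAL27 to enter the test. The sh 64 and sh 65 comparisons share the 2 control libraries. The median log2 change of the tested factors was 0.01 in A253, 0.11 in SCC25 and 0.51 with the knockdown mean, beside medians over all genes within 0.01 of 0. In bulk RNA, fewer cells that express a gene and less RNA of it per cell cannot be told apart.

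**Figure D1:**
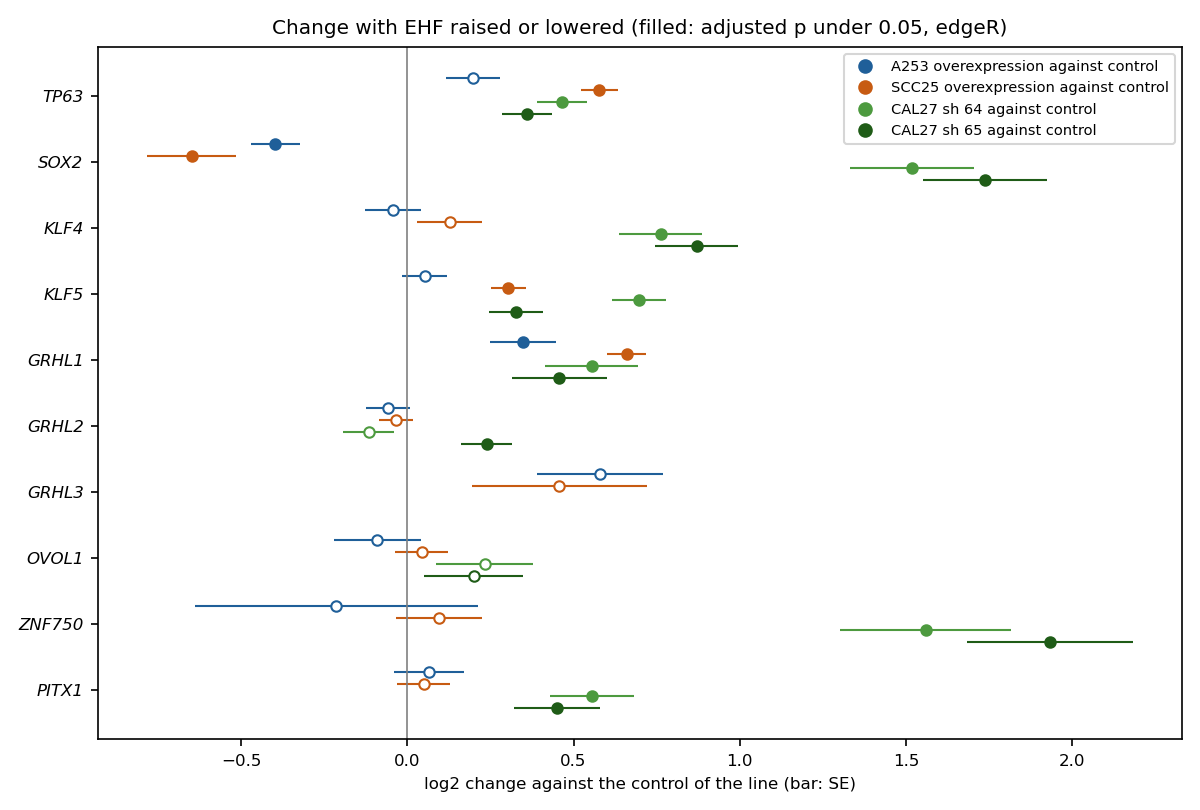
Log2 change (x axis) of each factor (y axis) in EHF overexpression or knockdown libraries against the control of the same line, with bars for the SE and filled points for an adjusted p under 0.05. SOX2 lies below 0 in both overexpression comparisons and above 1.5 with both hairpins, and GRHL1 lies above 0 in all 4.

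SOX2, the progenitor factor, moved against EHF in each of the 3 lines. In A253 it stood at 49.2, 44.6 and 46.7 CPM in controls and at 33.3, 35.9 and 37.5 CPM with EHF overexpression. Every overexpression library lay below every control. The level was 1.32-fold lower (log2 change -0.40, SE 0.07, edgeR adjusted p = 0.00217). In SCC25 the controls held 14.6 and 12.2 CPM and the overexpression libraries 9.055 and 8.25 CPM, again without overlap. This was 1.57-fold lower (log2 change -0.65, SE 0.13, edgeR adjusted p = 0.000748).

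SOX2 was least abundant in CAL27 and rose there with both hairpins. The controls held 3.87 and 4.14 CPM, the sh 64 libraries 11.9 and 11.2 CPM and the sh 65 libraries 12.1 and 15.0 CPM. All 4 knockdown libraries exceeded both controls. The rise was 2.86-fold with sh 64 (log2 change 1.52, SE 0.19, edgeR adjusted p = 2.86e-05) and 3.33-fold with sh 65 (log2 change 1.74, SE 0.19, edgeR adjusted p = 4.06e-06). These 4 calls held in every alternative run, with the largest adjusted p at 0.0278, in A253. SOX2-OT, the long RNA gene that overlaps SOX2, was far lower, at 0.142 to 1.80 CPM over the 16 libraries. It was not called in A253 (log2 change -0.47, edgeR adjusted p = 0.343) or SCC25 (log2 change -0.37, edgeR adjusted p = 0.615), and it was too low to test in CAL27.

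**Figure D2:**
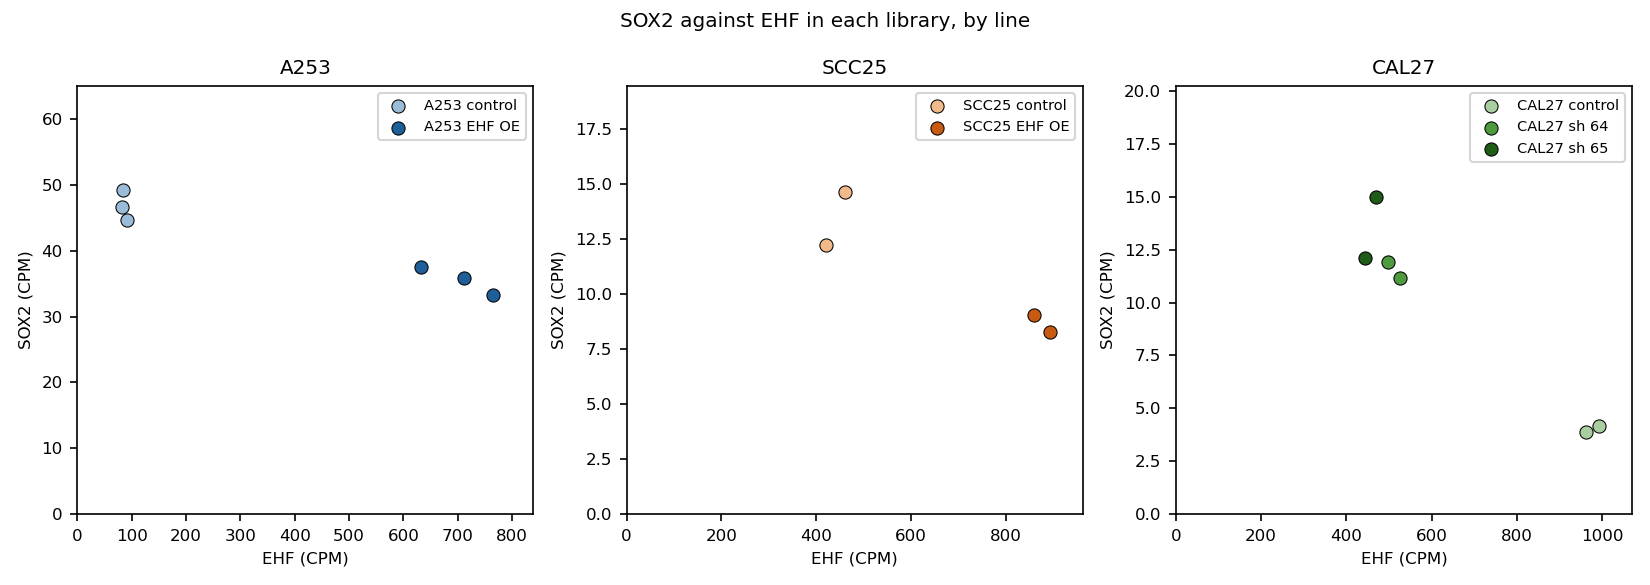
SOX2 (y axis, CPM) against EHF (x axis, CPM) in each library, 1 panel per line with its own scale, each point 1 library. In each panel the group with more EHF has less SOX2 than the control or knockdown group beside it: 33.3 to 37.5 CPM against 44.6 to 49.2 CPM in A253, and 3.87 and 4.14 CPM in CAL27 controls against 11.2 to 15.0 CPM in the knockdowns.

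TP63, the master factor of basal squamous cells, rose in SCC25 and in both knockdowns. In A253 its controls held 464, 555 and 491 CPM and the overexpression libraries 635, 571 and 525 CPM. The ranges overlapped, and the difference did not pass (log2 change 0.20, SE 0.08, edgeR adjusted p = 0.184). In SCC25 it went from 576 and 544 CPM to 866 and 807 CPM, without overlap. The rise was 1.49-fold (log2 change 0.58, SE 0.05, edgeR adjusted p = 1.87e-08). In CAL27 the controls held 338 and 345 CPM, the sh 64 libraries 461 and 483 CPM and the sh 65 libraries 412 and 465 CPM. All 4 knockdown libraries were above both controls, by 1.38-fold with sh 64 (log2 change 0.46, SE 0.08, edgeR adjusted p = 0.000372) and 1.28-fold with sh 65 (log2 change 0.36, SE 0.08, edgeR adjusted p = 0.00313). The count is per gene symbol, so the full-length and the N-terminally shortened p63 transcripts are pooled. The sh 65 call was lost without CAL27 control replicate 1 (edgeR adjusted p = 0.0598), and without A253 control replicate 2 TP63 passed in A253 (log2 change 0.27, edgeR adjusted p = 0.0445).

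PITX1, which directs oral and jaw epithelium in development, rose in CAL27. Its controls there held 15.4 and 15.96 CPM, the sh 64 libraries 24.4 and 21.4 CPM and the sh 65 libraries 22.1 and 20.8 CPM. Neither hairpin overlapped the controls, and the rise was 1.47-fold with sh 64 (edgeR adjusted p = 0.00586) and 1.37-fold with sh 65 (edgeR adjusted p = 0.024). In A253 it ranged from 18.4 to 21.1 CPM in controls and from 17.98 to 23.95 CPM with overexpression (log2 change 0.07, edgeR adjusted p = 0.824). In SCC25 it ranged from 32.1 to 33.3 CPM and from 33.8 to 33.9 CPM (log2 change 0.05, edgeR adjusted p = 0.71). The knockdown mean was 1.42-fold higher (edgeR adjusted p = 0.00387), a call lost without either CAL27 control, with an adjusted p of up to 0.0603. The sh 64 call was lost in 3 of 8 alternatives (largest adjusted p 0.121) and the sh 65 call in 4 of 8, DESeq2 among them (largest adjusted p 0.15).

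**Figure D3:**
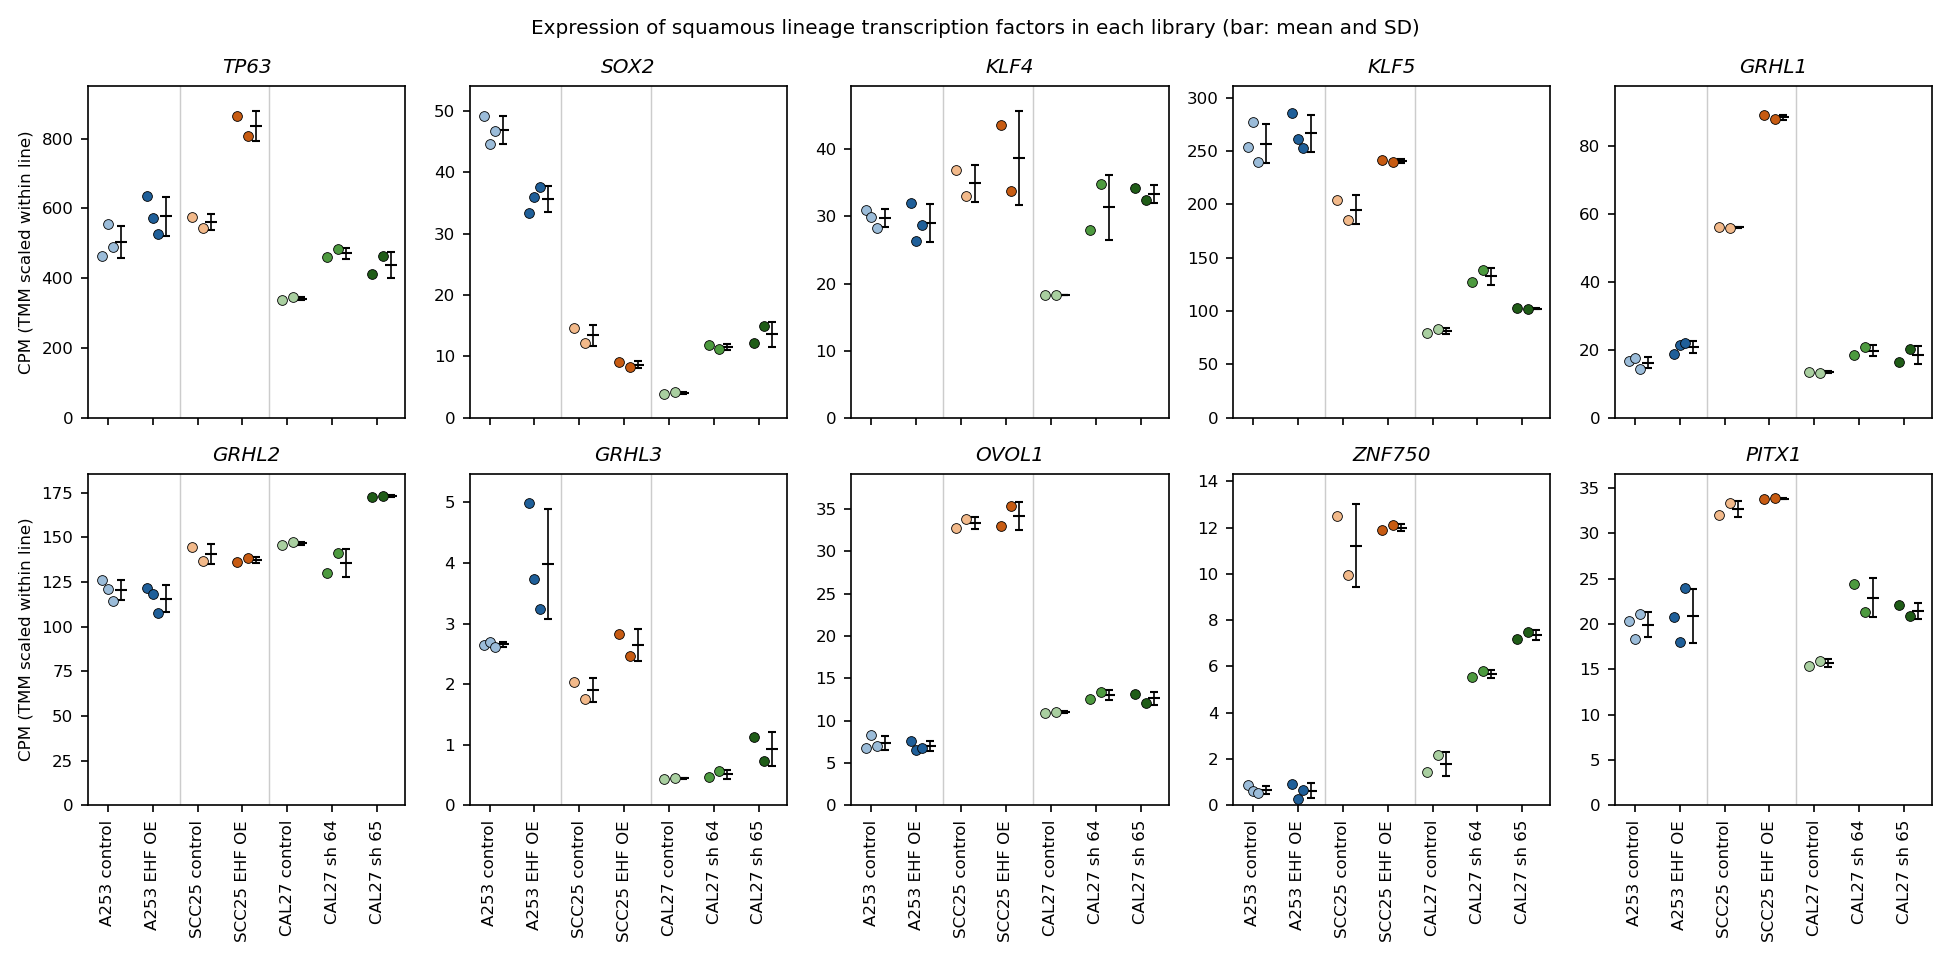
Expression (y axis, CPM scaled within each line) of each factor in every library of the 7 groups (x axis), with 1 point per library and the mean and SD beside it. SOX2 falls with overexpression in A253 and SCC25, while SOX2, KLF4 and ZNF750 in CAL27 are higher in all 4 knockdown libraries than in the 2 controls.

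Of the KLF pair, KLF4, the factor of differentiating layers, rose with both hairpins in CAL27. The CAL27 controls held 18.2 and 18.3 CPM, the sh 64 libraries 28.0 and 34.8 CPM and the sh 65 libraries 34.3 and 32.4 CPM. The knockdown libraries lay well above the controls, by 1.70-fold with sh 64 (log2 change 0.76, SE 0.12, edgeR adjusted p = 0.000419) and 1.83-fold with sh 65 (log2 change 0.87, SE 0.12, edgeR adjusted p = 0.000104). In A253 it ranged from 28.3 to 31.0 CPM in controls and from 26.3 to 32.0 CPM with overexpression (log2 change -0.04, edgeR adjusted p = 0.871). In SCC25 the controls held 36.9 and 33.0 CPM and the overexpression libraries 43.7 and 33.8 CPM, which overlapped. The SCC25 difference did not pass (log2 change 0.13, edgeR adjusted p = 0.386), but it did without overexpression replicate 2 (log2 change 0.31, edgeR adjusted p = 0.0269).

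KLF5, the factor of proliferating basal cells, did not pass in A253, with 240 to 277 CPM in controls and 252 to 286 CPM with overexpression (log2 change 0.05, edgeR adjusted p = 0.777). In SCC25 the controls held 204 and 186 CPM and the overexpression libraries 242 and 239 CPM. The overexpression libraries were both higher, by 1.23-fold (log2 change 0.30, SE 0.05, edgeR adjusted p = 0.000119). In CAL27 the controls held 79.3 and 83.5 CPM, the sh 64 libraries 127 and 138 CPM and the sh 65 libraries 103 and 102 CPM. The 3 sets did not overlap, with sh 64 highest. The rise was 1.62-fold with sh 64 (log2 change 0.70, SE 0.08, edgeR adjusted p = 1.55e-05) and 1.254-fold with sh 65 (log2 change 0.33, SE 0.08, edgeR adjusted p = 0.0105). The sh 65 call was lost without either CAL27 control replicate (largest adjusted p 0.152).

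Among the grainyhead-like factors, GRHL1, an activator of desmosomal genes, rose whichever way EHF was moved. In A253 it went from 16.6, 17.5 and 14.4 CPM to 18.7, 21.4 and 22.04 CPM, without overlap. The rise was 1.27-fold (log2 change 0.35, SE 0.10, edgeR adjusted p = 0.0374). In SCC25, where GRHL1 was most abundant, it went from 56.2 and 55.9 CPM to 89.0 and 88.0 CPM. Replicates there differed far less than the groups, and the rise was 1.58-fold (log2 change 0.66, SE 0.06, edgeR adjusted p = 5.3e-09). In CAL27 the controls held 13.6 and 13.1 CPM, the sh 64 libraries 18.5 and 21.0 CPM and the sh 65 libraries 16.5 and 20.2 CPM. Both hairpins lay above the controls, by 1.47-fold with sh 64 (log2 change 0.55, SE 0.14, edgeR adjusted p = 0.0116) and 1.37-fold with sh 65 (log2 change 0.46, SE 0.14, edgeR adjusted p = 0.0378). The A253 call was lost in 6 of 10 alternatives, among them DESeq2 (adjusted p = 0.127) and leaving out control replicate 1 or 3 or overexpression replicate 2 or 3 (largest adjusted p 0.15). Each hairpin's call was lost in 4 of 8 alternatives, DESeq2 and either CAL27 control among them, and the SCC25 call held in all.

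GRHL2, the most abundant grainyhead-like factor and a guard of the epithelial state, did not pass in either overexpression comparison. It ranged from 115 to 126 CPM in A253 controls and from 108 to 122 CPM with overexpression (log2 change -0.06, edgeR adjusted p = 0.728). In SCC25 it ranged from 137 to 145 CPM and from 136 to 139 CPM (log2 change -0.03, edgeR adjusted p = 0.7). In CAL27 the controls held 146 and 147 CPM, the sh 64 libraries 130 and 141 CPM and the sh 65 libraries 173 and 173 CPM, so the hairpins fell on opposite sides of the controls. GRHL2 rose 1.18-fold with sh 65 (log2 change 0.24, SE 0.08, edgeR adjusted p = 0.0406) and was not called with sh 64 (log2 change -0.12, SE 0.08, edgeR adjusted p = 0.335). The sh 65 call was lost in 5 of 8 alternatives, DESeq2, either control and either sh 65 replicate.

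GRHL3, a barrier factor of the outer layers, was scarce in all lines. In A253 it went from 2.65, 2.70 and 2.62 CPM to 4.98, 3.73 and 3.23 CPM, without overlap, but did not pass (log2 change 0.58, SE 0.19, edgeR adjusted p = 0.0788). With no filter on low counts it passed (edgeR adjusted p = 0.0477). In SCC25 it went from 2.04 and 1.76 CPM to 2.83 and 2.46 CPM (log2 change 0.46, SE 0.26, edgeR adjusted p = 0.223). In CAL27 it lay between 0.442 and 1.13 CPM in the 6 libraries, and with no filter its knockdown mean had a log2 change of 0.60 (SE 0.56, edgeR adjusted p = 0.592).

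The factors of terminal differentiation parted from each other. ZNF750 rose in CAL27, from 1.44 and 2.17 CPM in controls to 5.56 and 5.80 CPM with sh 64 and 7.19 and 7.51 CPM with sh 65. No knockdown library overlapped a control. The rise was 2.95-fold with sh 64 (log2 change 1.56, SE 0.26, edgeR adjusted p = 0.000433) and 3.82-fold with sh 65 (log2 change 1.93, SE 0.25, edgeR adjusted p = 3.47e-05), and both calls held in every alternative run. In SCC25 it ranged from 9.94 to 12.5 CPM in controls and from 11.9 to 12.1 CPM with overexpression (log2 change 0.09, edgeR adjusted p = 0.659). In A253 it stayed below 1 CPM in every library (log2 change -0.21, SE 0.43, edgeR adjusted p = 0.871), a level at which this difference has the widest error of the 10. OVOL1 was not called in any EHF comparison. It held 10.95 and 11.06 CPM in CAL27 controls and 12.1 to 13.4 CPM in the 4 knockdown libraries, which did not overlap the controls (knockdown mean log2 change 0.22, SE 0.13, edgeR adjusted p = 0.259). In A253 it ranged from 6.73 to 8.32 CPM and from 6.51 to 7.62 CPM, and in SCC25 from 32.8 to 33.8 CPM and from 33.0 to 35.3 CPM.

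The effect of overexpression in SCC25 was set against that in A253 with an interaction term, in which 5.63% of all genes were called. None of the 10 factors passed in edgeR (0 of 10) or in DESeq2 (0 of 10), and 3 had an unadjusted p under 0.05, all with the larger change in SCC25. TP63 had the largest difference of these, at 0.36 on the log2 scale (SE 0.12, edgeR adjusted p = 0.0902), followed by GRHL1 at 0.30 (SE 0.12, edgeR adjusted p = 0.158) and KLF5 at 0.24 (SE 0.10, edgeR adjusted p = 0.189). TP63 passed without A253 overexpression replicate 1 (difference 0.44, edgeR adjusted p = 0.0196). For SOX2 the difference was -0.26 (SE 0.14, edgeR adjusted p = 0.335).

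The hairpins were compared directly with each other, where 5.34% of all genes were called. Of the 9 factors tested, GRHL2 was 1.28-fold higher with sh 65 than with sh 64 (log2 difference 0.35, SE 0.08, edgeR adjusted p = 0.00919) and KLF5 was 1.29-fold lower (log2 difference -0.37, SE 0.08, edgeR adjusted p = 0.01). The GRHL2 call was lost without sh 64 replicate 1 (edgeR adjusted p = 0.108) and the KLF5 call without sh 64 replicate 2 (edgeR adjusted p = 0.079). The other 7 did not pass, with adjusted p-values from 0.408 to 0.945, and EHF itself was 0.16 lower on the log2 scale with sh 65 (edgeR adjusted p = 0.23).

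The lines also differed in how much of each factor their controls held, given per transcript length as TPM (mean ± SD, n = 3 for A253 and n = 2 for the others). TP63 was the highest of the 10 in all 3 lines, at 156 ± 19.6 TPM in A253, 167 ± 13.1 TPM in SCC25 and 100.3 ± 0.473 TPM in CAL27. In A253 it was followed by KLF5 at 155 ± 17.1 TPM, whose range overlapped that of TP63. Then came GRHL2 at 46.5 ± 3.35 TPM, SOX2 at 37.6 ± 1.62 TPM, KLF4 at 20.5 ± 1.46 TPM and PITX1 at 16.8 ± 0.569 TPM. GRHL1 at 9.07 ± 1.21 TPM, OVOL1 at 4.92 ± 0.738 TPM, GRHL3 at 1.56 ± 0.0846 TPM and ZNF750 at 0.426 ± 0.108 TPM closed the order, and no neighbours other than TP63 and KLF5 overlapped.

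In SCC25 controls KLF5 held 113 ± 12.03 TPM, GRHL2 52.2 ± 3.96 TPM, GRHL1 30.2 ± 1.23 TPM and PITX1 26.6 ± 0.274 TPM. KLF4 at 23.1 ± 2.69 TPM and OVOL1 at 21.4 ± 0.352 TPM overlapped, and SOX2 at 10.4 ± 1.70 TPM, ZNF750 at 6.83 ± 1.35 TPM and GRHL3 at 1.08 ± 0.153 TPM came last. CAL27 controls held the second most TPM in GRHL2, at 53.7 ± 0.637 TPM, then KLF5 at 46.5 ± 0.852 TPM, PITX1 at 12.6 ± 0.106 TPM and KLF4 at 11.9 ± 0.200 TPM. GRHL1 at 7.11 ± 0.306 TPM and OVOL1 at 6.98 ± 0.0760 TPM overlapped, and SOX2 held 3.05 ± 0.0907 TPM, ZNF750 1.08 ± 0.292 TPM and GRHL3 0.251 ± 0.000278 TPM. This GRHL3 level rests on 4 and 9 counts, so its small SD does not show a precise value.

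**Figure D4:**
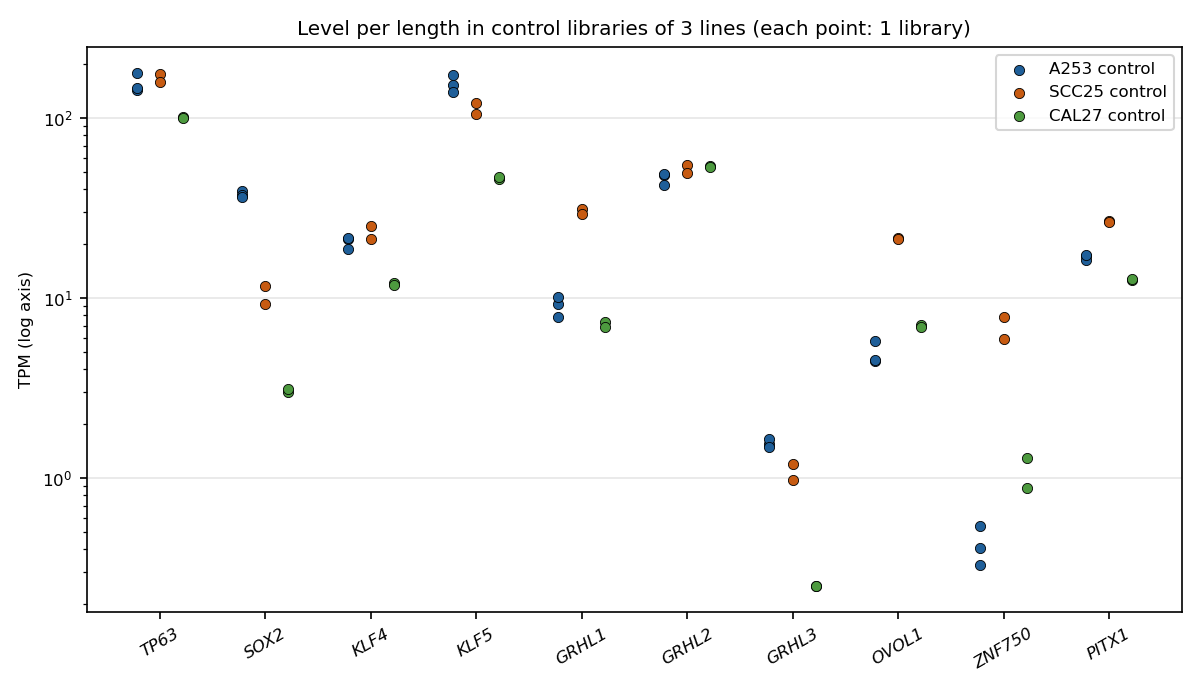
Level per transcript length (y axis, TPM on a log axis) of each factor (x axis) in the control libraries of A253, SCC25 and CAL27, each point 1 library. SOX2 runs from about 3 TPM in CAL27 to over 36 TPM in A253, ZNF750 is lowest in A253 and highest in SCC25, and GRHL2 lies between 42.6 and 55.0 TPM in all.

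Between controls of different lines most genes differed, and the line and its library preparation cannot be told apart. Against SCC25, A253 differed in 9 of 10 factors, where 74.5% of all genes were called, with SOX2 and KLF5 higher and 7 lower. SOX2 was 3.28-fold higher (log2 difference 1.71, SE 0.10), while ZNF750 was 17.03-fold lower (-4.09, SE 0.23), OVOL1 4.76-fold lower (-2.25, SE 0.11) and GRHL1 3.64-fold lower (-1.86, SE 0.09). Against CAL27, A253 differed in 9 of 10, where 73% of all genes were called, with 6 higher and 3 lower. SOX2 was 11.03-fold higher in A253 (3.46, SE 0.12), GRHL3 5.55-fold (2.47, SE 0.33) and KLF5 3.02-fold (1.59, SE 0.08), and only GRHL1 did not pass (0.23, edgeR adjusted p = 0.0554). The GRHL3 difference rests on only 4 and 9 counts in the CAL27 controls. Against SCC25, CAL27 was lower in 9 of 10, where 70.9% of all genes were called and 37.3% were called lower. The gap was widest for ZNF750, 5.89-fold lower (-2.56, SE 0.22), and GRHL1, 4.26-fold lower (-2.09, SE 0.10), and GRHL2 did not differ past the threshold (0.04, edgeR adjusted p = 0.622). The A253 calls for TP63 and KLF4 were lost without SCC25 control replicate 1 (largest adjusted p 0.142), and those against CAL27 for PITX1 and ZNF750 were lost without 1 control or another (largest adjusted p 0.0924 and 0.0637).

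Gene lists around the factors were counted in the same comparisons. Of all genes tested, 5.03% were called higher and 2.94% lower in A253, 12.2% higher and 11.6% lower in SCC25, and 9.88% higher and 8.91% lower with the knockdown mean. The p63 target genes of basal cells, keratins and integrins among them, had 20 of 34 tested members higher and 1 lower in SCC25, 61.8% called against 23.9% of all genes (median log2 change 0.20). They had 2 higher and 6 lower of 33 in A253, 24.2% called against 7.97% (median -0.07). With the knockdown mean 15 of 33 were higher and 5 lower, 60.6% called against 18.8% (median 0.26). IGFBP3, which binds insulin-like growth factors, rose in A253 (1.72, SE 0.06, edgeR adjusted p = 2.1e-11) and SCC25 (2.20, SE 0.05, edgeR adjusted p = 3.3e-20) and fell in the knockdown (-0.59, SE 0.06, edgeR adjusted p = 3.5e-06). KRT14, the basal keratin, fell in A253 (-0.33, SE 0.07, edgeR adjusted p = 0.00948) and rose in the knockdown (1.23, SE 0.09, edgeR adjusted p = 9.58e-07). PKP1, a desmosomal plaque protein, also fell in A253 (-0.51, SE 0.08, edgeR adjusted p = 0.000991) and rose in the knockdown (1.27, SE 0.08, edgeR adjusted p = 1.35e-08). ITGB4, the hemidesmosomal integrin, rose in SCC25 (0.79, SE 0.06, edgeR adjusted p = 1.08e-10).

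Differentiation genes tied to KLF4 and ZNF750 had the highest list median in CAL27. With the knockdown mean 15 of 22 tested were higher and 0 lower in edgeR, 0 being lower at an unadjusted p under 0.05 and 0 in DESeq2, with a median of 0.76, where 9.88% of all genes were called higher and 8.91% lower. The cornified envelope genes SPRR1B (2.63, SE 0.17, edgeR adjusted p = 4.02e-08) and SPRR1A (2.31, SE 0.26, edgeR adjusted p = 8.16e-06) and the mucosal keratin KRT4 (2.69, SE 0.36, edgeR adjusted p = 4.45e-05) rose most in this mean. KRT4 held 0.519 CPM on average in controls, 1.18 CPM with sh 64 and 12.3 CPM with sh 65, so its mean rests on sh 65. In SCC25 11 of 26 were higher and 0 lower in edgeR, with 0 lower at an unadjusted p under 0.05 and 0 in DESeq2 (median 0.18), where 12.2% of all genes were called higher and 11.6% lower. In A253 1 of 25 was higher and 7 lower (median -0.25), beside 5.03% and 2.94% of all genes. KRT16, an activation keratin, fell in A253 (-0.66, SE 0.10, edgeR adjusted p = 0.000419), and PI3, the protease inhibitor elafin, rose in SCC25 (1.38, SE 0.16, edgeR adjusted p = 6.26e-07). Both were also higher in the CAL27 knockdowns. KRT16 averaged 31.05 CPM in CAL27 controls and 84.2 CPM over both knockdowns. PI3 averaged 7.43 CPM in CAL27 controls, 29.4 CPM with sh 64 and 16.3 CPM with sh 65.

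GRHL target genes were higher in 10 of 31 and lower in 0 with the knockdown mean in edgeR, with 1 lower at an unadjusted p under 0.05 and 0 in DESeq2 (median 0.14). This was 32.3% called, against 18.8% of all genes. CLDN7, a tight junction claudin, rose in the knockdown (1.07, SE 0.12, edgeR adjusted p = 7.12e-06) and in SCC25 (0.64, SE 0.08, edgeR adjusted p = 1.81e-06). CLDN4, another claudin of the list, fell in SCC25 (-0.82, SE 0.13, edgeR adjusted p = 2.81e-05). In CAL27 CLDN4 averaged 78.6 CPM in controls and 79.2 CPM over both knockdowns. TMPRSS13, a membrane protease, rose in the knockdown (1.11, SE 0.18, edgeR adjusted p = 0.000372) and fell in A253 (-0.91, SE 0.16, edgeR adjusted p = 0.00104) and SCC25 (-0.93, SE 0.20, edgeR adjusted p = 0.00112). In SCC25 10 of 32 were higher and 3 lower, 40.6% against 23.9% of all genes (median 0.14), and in A253 4 of 33 were higher and 6 lower, 30.3% against 7.97% (median -0.09).

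Other epithelial transcription factors gave 7 higher and 3 lower of 39 in A253 (median -0.03), 11 higher and 3 lower of 36 in SCC25 (median 0.11), and 9 higher and 2 lower of 32 with the knockdown mean (median 0.25). The shares called were 25.6%, 38.9% and 34.4%, against 7.97%, 23.9% and 18.8% of all genes. This list holds EHF itself, whose change was set by the design. EHF is counted among the higher genes in A253 and SCC25 and among the lower ones with the knockdown mean. ELF3, an ETS factor closely related to EHF, rose in the knockdown (1.17, SE 0.10, edgeR adjusted p = 1.35e-06), as did BCL11B, a zinc finger factor (1.08, SE 0.14, edgeR adjusted p = 2.64e-05). HOPX rose in A253 (1.33, SE 0.20, edgeR adjusted p = 0.000376) and FOXQ1 in SCC25 (1.28, SE 0.09, edgeR adjusted p = 1.08e-10). HOPX was also higher in SCC25, at 2.83 and 3.46 CPM with overexpression against 1.08 and 1.11 CPM in controls. Among the falls were MAF (-0.68, edgeR adjusted p = 0.00265) and DLX3 (-0.64, edgeR adjusted p = 0.0119) in A253. In SCC25 CEBPA (-0.45, edgeR adjusted p = 0.00577) and SOX9 (-0.39, edgeR adjusted p = 0.0418) fell. ARNTL2 fell in the knockdown (-0.32, edgeR adjusted p = 0.00112). The DLX3, CEBPA and SOX9 calls were lost in DESeq2. Paralogs of the 10 gave 0 called of 18 in A253 in edgeR, 2 at an unadjusted p under 0.05 and 0 in DESeq2, against 3 higher and 1 lower in SCC25 and 4 higher and 1 lower with the knockdown mean. The share called in SCC25, 22.2%, was near the 23.9% of all genes, and with the knockdown mean it was 27.8% against 18.8%. The medians were -0.04, 0.11 and 0.05, and KLF3, a repressor of the KLF family, rose in SCC25 (0.45, SE 0.06, edgeR adjusted p = 5.61e-06) and in the knockdown (0.38, SE 0.07, edgeR adjusted p = 0.000646).

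Mesenchymal transition factors, which oppose the epithelial state, gave 0 higher and 2 lower of 8 in A253, TWIST1 (-0.34, SE 0.09, edgeR adjusted p = 0.0298) and SNAI2 (-0.26, SE 0.07, edgeR adjusted p = 0.029). None was higher there at an unadjusted p under 0.05, and 0 of the 8 passed in DESeq2. Each call was lost in 6 of 10 alternatives, TWIST1 with the replicate block, DESeq2 and 4 left-out libraries (largest adjusted p 0.135) and SNAI2 with DESeq2 and 5 left-out libraries (largest adjusted p 0.141). In SCC25 0 of 8 passed in edgeR and 0 in DESeq2, with 4 lower at an unadjusted p under 0.05 (median -0.34). In CAL27 1 of the 4 tested was lower with the knockdown mean in edgeR, SNAI2 (-0.23, SE 0.07, edgeR adjusted p = 0.0325), and 0 in DESeq2 (median -0.07). SNAI2 is named there after its value was seen, since its groups overlapped. It averaged 81.9 CPM in controls, 77.5 CPM with sh 64 and 62.1 CPM with sh 65, so its fall rests mostly on sh 65. With sh 64 alone 0 of the 4 factors were called lower, and with sh 65 alone 1 was.

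The genes whose pattern over the 16 libraries was most like that of a factor were found by Pearson correlation of log2 CPM, centred on the control mean of each line, among 10089 genes. The libraries share their line's controls and group changes, so these values describe likeness only. SOX2 was most like PHGDH, an enzyme of serine synthesis (r = 0.987), and GBP6 (r = 0.986). KLF5 was most like KDM5B (r = 0.974) and ATP9A (r = 0.965). TP63 was most like NCOA3 (r = 0.949) and SERPINB13 (r = 0.93), and GRHL1 was most like NCOA3 (r = 0.936).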

How the data were processed

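RNA was measured by poly(A)-enriched sequencing in 16 libraries of 3 lines. The deposited count tables, made by the authors, hold raw counts per gene symbol. The deposited TPM tables of A253 and CAL27, made by the authors, gave the gene lengths, the same in both lines for all 17691 genes compared (tolerance 0.01, log2 scale), from which TPM was computed for every library. The SCC25 TPM table was not used. Per the submitters' processing notes, TopHat2 2.1.1, featureCounts 1.5.3, Bowtie 1.1.1, DESeq2 1.12.4 and hg19 were used, with no role or order given. In CAL27, the count and TPM tables name the hairpins the other way round by their patterns of zeros (100.0 percent of genes matching) and exchange replicates 1 and 2 of sh 64. Names and numbers of the count table are used, and the labels tie neither name to knockdown 1 or 2. Gene names there differ from those of A253 at 696 positions, and all 10 factors were found by name. The ChIP library and its input DNA were not analysed here.

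Counts were fitted with edgeR 4.0.16 in R 4.3.3 (filterByExpr, TMM scaling, robust quasi-likelihood tests, two-sided, Benjamini-Hochberg adjustment over all genes tested, threshold 0.05). Each line had its own fit, while controls across lines and the SCC25 against A253 effect came from joint fits. CPM relates each count to the TMM-scaled total. Alternatives were DESeq2 1.42.0, RLE size factors, no filter on low counts, a replicate block and leaving out each library. Replicate pairs differed by more than counting noise (chi-square per degree of freedom from 2.48 to 16.6). Same-numbered libraries did not deviate together throughout (r from -0.434 to 0.469), so numbers were not taken as pairs. Differently numbered A253 libraries shared more: control replicate 2 had r = 0.597 with overexpression replicate 1 and -0.633 with replicate 3. The fits did not model this. All 10 factors were named in each comparison, and from each list at most the largest rises and falls whose log2 CPM averaged 2 or more and whose groups did not overlap. The factors and the lists (other epithelial transcription factors, paralogs, mesenchymal transition factors, p63 targets, GRHL targets, KLF4 and ZNF750 differentiation genes, and cell type markers) were chosen with earlier results of these data known. The fit was tested on simulated counts with known changes. These were drawn independently for each library with a common spread, so they cannot speak to the shared deviations in A253.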

Additional observations from a re-analysis of the deposited data

Results flagged for a closer look

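The hairpins differed from each other in CAL27 for 2 of the factors, by a direct edgeR test of sh 65 against sh 64. The log2 difference was -0.37 for KLF5 and 0.35 for GRHL2. Of 22 differentiation genes tied to KLF4 and ZNF750, 4 were higher and 6 lower with sh 65. This was 45.5% called, against 5.34% of all genes. For 4 of those called, the log2 difference was 3.34 (KRT4), 1.71 (KRT13), -1.37 (SPRR1A) and -1.62 (RHCG). KRT4 and KRT13 are mucosal keratins. The KRT13 call was lost without either sh 64 replicate.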

How the results depend on the processing

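Over 884 alternatives for a factor in a comparison, 836 stayed on their side of the threshold, 41 lost a call and 7 gained one. The sign changed in 25, all among values not called in either setting, such as KLF4, OVOL1, PITX1 and ZNF750 in A253. For list genes 491 of 520 stayed on their side and 29 lost a call. In A253 the number of factors called, 2, became 1 with DESeq2 and ranged from 1 to 3 when 1 library was left out. With a replicate block it became 1, GRHL1 being lost (adjusted p = 0.0688); the replicate block ended no other call of a factor. Between the hairpins it gave 1260 genes in place of 728, with the replicate numbers of the count table, which the TPM table exchanges for 1 hairpin. For sh 65 the number, 8, became 5 with DESeq2 and ranged from 3 to 6 with 1 library left out. For sh 65 against sh 64, 2 ranged from 1 to 2, and for the SCC25 against A253 effect, 0 became 1 with no filter on low counts (TP63) and ranged from 0 to 1. Where 1 library of a pair was left out, the remaining one was assumed to vary like the other groups.

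Over all genes, DESeq2 called 1599 in SCC25 in place of 3370, 1475 with the knockdown mean in place of 2560, 1224 with sh 64 in place of 2133, 1199 with sh 65 in place of 1994, 444 between hairpins and 529 for the SCC25 against A253 effect in place of 871. With 1 library left out, the lowest counts were 658 in A253 in place of 1156, 2124 in SCC25, 937 with the knockdown mean, 866 with sh 64, 879 with sh 65, 263 between hairpins and 318 for the difference of effects. The causes were not tested. Low counts limit GRHL3 and ZNF750 most: GRHL3 was too low to test in CAL27 and ZNF750 stayed below 1 CPM in A253.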
